A study of Caenorhabditis elegans with 10 samples.

Results

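Adults of a nep-1 mutant of the nematode Caenorhabditis elegans were compared with larvae of the same mutant at the third larval stage, L3, on Affymetrix arrays. The members are the 5 mutant arrays of a series of 10, chosen by their titles: 2 of larvae (larval 1 and 2) and 3 of adults (adult 1, 2 and 3). No wild-type array entered the main comparison of stages. Worms of the Bristol variety, 2 larval and 3 adult arrays, served where the stage change of the mutant was set against that of the wild type. They also entered the alternative fits with all 10 arrays, and gave a wild-type adult whose place was set beside that of adult 1. All worms were grown at 20 °C on agar and fed Escherichia coli OP50, and RNA came from the whole body. The nep-1 allele arose by mutagenesis with EMS, a chemical mutagen, and both stages of the mutant carry it. The titles call the replicates biological. A strain number stands in the description of larval 1 (2845) and of adults 2 and 3 (2815), while larval 2 and adult 1 have none. Whether all 5 arrays come from a single strain is not stated, nor is the age of the adults.

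The product of nep-1 belongs to the neprilysins, zinc-dependent peptidases of the cell surface that cleave small peptides outside the cell. Between L3 and adulthood a worm passes through further moults, and in each moult the epidermis makes a new cuticle, built mainly of collagens, and sheds the old one. Genes for collagens, for proteins of the apical matrix and for hedgehog-related proteins are known to cycle with the moults, and adults no longer moult. Adult hermaphrodites in turn carry a large germline with sperm and oocytes, and their intestine makes yolk. In RNA of whole worms, fewer cells of a type and less RNA per cell cannot be told apart.

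The mutant arrays did not fall cleanly into larvae and adults. Across 22548 probe sets, which are not independent of each other, the larval arrays correlated with one another at 0.963 (Pearson) and adults 2 and 3 at 0.967. Adult 1 correlated with adults 2 and 3 at 0.897 and 0.908, and with larval 1 and 2 at 0.894 and 0.886, whereas adults 2 and 3 correlated with the larvae at 0.829 to 0.842. The arrays also differed in control RNA. The 6 probe sets for dap, a Bacillus subtilis gene used as a spiked control, averaged log2 4.17 on larval 1 and 4.13 on adult 1, against 6.27 on larval 2, 7.21 on adult 2 and 6.83 on adult 3. Both levels of this control occur in both stages, so the stage difference could also be read within each set of arrays: adult 1 against larval 1, and adults 2 and 3 against larval 2. The sets rest on dap alone, and other controls divided the arrays differently. The control bioB averaged log2 5.696 on larval 1 but 7.201 on adult 1. For ubiquitin, the 3-prime minus 5-prime log2 difference was 3.41, 3.48 and 3.38 on larval 1, larval 2 and adult 1. On adults 2 and 3 it was 2.92 and 2.81. Whether these differences bear on the levels or detection calls of the arrays was not tested. Adult 1 is the only adult mutant array with the low dap control, so its position and that of its set cannot be told apart. Detection calls (present, marginal or absent) were present for 11184 probe sets on larval 1, 12196 on larval 2, 13939 on adult 1, 13433 on adult 2 and 11991 on adult 3. Of 29 lists of genes for tissues and pathways, 12 had no named gene here, among them those for yolk, oocytes, germline, neurons and intestine, so the arrays could not be checked against named genes of these. For sperm, 2 probe sets that match several genes carry the title of the major sperm protein, the main protein of worm sperm, in the deposited lists. The first measured 5.87 and 5.21 in larvae and 11.57, 14.06 and 12.07 in adults 1, 2 and 3 (log2, limma adjusted p = 0.0194), and the other 5.69 and 5.86, then 11.82, 13.96 and 12.38 (limma adjusted p = 0.0137). All 3 adults were far above both larvae in both probe sets, with adult 1 the lowest of the adults. The array files name genes for 145 of the probe sets' targets only, since gene numbers stand in the authors' lists of transcripts changed between mutant and wild type. Those lists drew on the same mutant arrays, so the named genes are neither a sample of all genes nor independent of the levels compared here.

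More probe sets were higher in adults than lower among those that passed the test. limma's moderated test on the deposited log2 values called 1136 of 22548 probe sets, 5.04%, at a Benjamini-Hochberg adjusted p under 0.05. Of these, 794 (3.52%) were higher in adults and 342 (1.52%) were lower. At an unadjusted p under 0.05 there were 5738. Probe sets called higher had a median difference of 2.29 (log2, adult minus larval) and reached 8.65, and those called lower had a median of −2.13 and reached −5.10. Over all probe sets the median difference was −0.02, with 3635 probe sets at 1 or more and 1390 at −1 or less. The excess of rises depended on scaling: 69.9% of calls were higher in adults on the deposited values, 53.9% after centring each array on its median and 47.1% after quantile normalisation.

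How many probe sets were called turned on single arrays. Without larval 1 or without larval 2, which leaves 1 larval array whose spread is assumed to be that of the adults, 0 were called, with 3616 and 3965 at an unadjusted p under 0.05. Without adult 1 the count was 5323, with 3519 (15.6%) higher and 1804 (8.0%) lower, and it held all 1136 of the calls made with 5 arrays. Without adult 2 it was 154 and without adult 3 it was 78. The spread within stages showed the same arrays apart: the median absolute difference was 0.232 between adults 2 and 3, 0.354 between the larvae, and 0.484 between adult 1 and the mean of the other adults. With the 2 sets of the dap control as a block, an alternative chosen after seeing the data, 1452 probe sets were called. A block of the replicate numbers in the titles divides the arrays alike, except that adult 3 stands alone, and gave 0 calls. All 794 probe sets called higher and all 342 called lower kept their sign within each control set. Their median differences were 1.95 and −1.83 between adult 1 and larval 1, and 2.43 and −2.29 between adults 2 and 3 and larval 2. The calls were made on these same arrays, which favours a shared sign, so these values are a description. Over all probe sets, 33.1% were higher in adults in both sets and 34.5% were lower in both, and the differences of the sets correlated at 0.571 across probe sets.

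**Figure D1:**
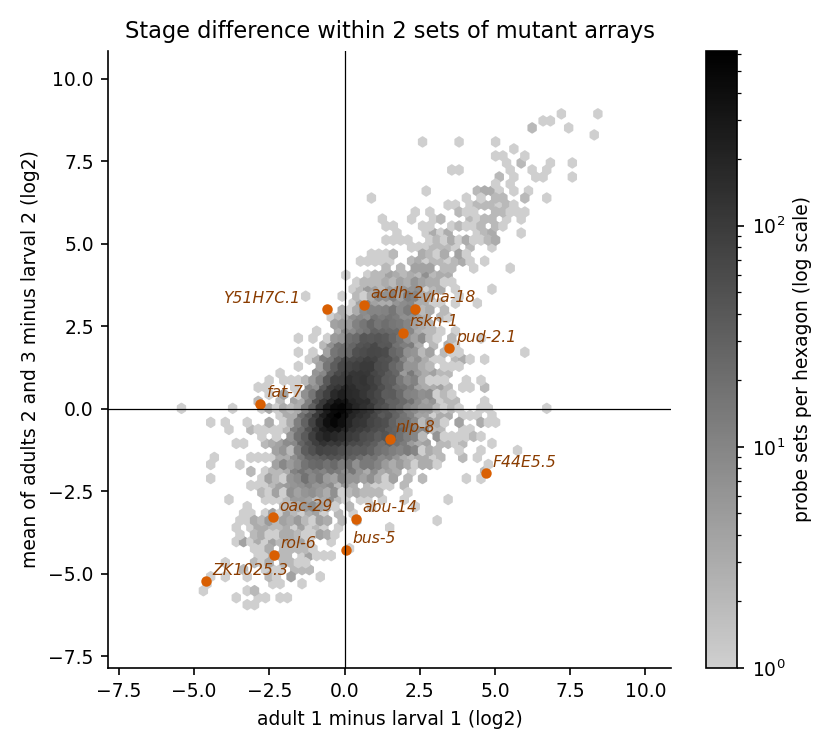
Each hexagon counts probe sets by the log2 difference of adult 1 and larval 1 (horizontal axis) and of the mean of adults 2 and 3 and larval 2 (vertical axis), with darker grey for more probe sets on a log scale; orange points are named genes. Most large rises lie far from 0 on both axes, while bus-5 and abu-14 lie near 0 on the horizontal axis and below −3 on the vertical axis, and F44E5.5 has opposite signs.

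The 2 probe sets with the largest rises and the 2 with the largest falls have no gene name here. Probe set 184864_at measured 3.77 and 3.48 on the larval arrays and 12.08, 12.12 and 12.63 on the adult arrays (log2). It was absent on both larvae and present on all 3 adults, and its difference of 8.65 ± 0.285 (SE, limma adjusted p = 0.0029) stands for at least 401.5-fold more in adults. 190649_at rose from 4.57 and 4.88 to 12.82, 13.22 and 13.01, also from absent to present, by at least 313.4-fold (limma adjusted p = 0.0029). Both probe sets had adult 1 at or close to the other adults. 184194_s_at fell from 8.44 and 9.75 in larvae to 3.72, 4.51 and 3.75 in adults, where it was absent on every array, by at least 34.3-fold (limma adjusted p = 0.015). 192712_at fell from 9.95 and 10.34 to 6.28, 5.14 and 3.95 (difference −5.02 ± 0.686, SE, limma adjusted p = 0.0264), with adult 1 the highest of the adults. It was present on adult 1 and absent on adults 2 and 3, so background limits its adult level on 2 of 3 arrays.

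Of the 145 named genes, 3 were called higher in adults and 6 lower, beside the shares of all probe sets given above. None of these 9 passed without larval 1, larval 2 or adult 3, and ZK1025.3 alone passed without adult 2 and on the scaled signals. Without adult 1, 9 were called higher and 55 lower. Larval and adult arrays did not overlap in 11 named genes that were higher in adults and in 56 that were lower, against 22.5% and 23.2% of all probe sets. The median difference of the named genes was −0.75 with all 5 arrays, −0.14 between adult 1 and larval 1 and −1.42 between adults 2 and 3 and larval 2. Larval 2 itself stood above larval 1 by a median of 0.858 in these genes, against 0.076 over all probe sets.

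Most named genes of the cuticle and of moulting had lower values in adults, as did 109 of all 145 named genes. Of the cuticle and moulting genes, rol-6 and mlt-8 passed the test with 5 arrays. rol-6, a cuticle collagen whose mutants roll as they move, measured 10.95 and 12.39 in larvae and 8.62, 8.20 and 7.74 in adults 1, 2 and 3 (log2). The groups did not overlap, and rol-6 fell by 3.49 ± 0.513 on the log2 scale (SE, limma adjusted p = 0.0306). The other collagens named for body shape, dpy-5 and sqt-2, had mutant differences of −2.97 ± 0.788 and −2.78 ± 0.587 and did not pass the test (limma adjusted p = 0.0926 and 0.0606). dpy-5 measured 11.87 and 12.83 in larvae against 10.30, 9.93 and 7.90 in adults, again without overlap. All 3 of these collagens passed the test once adult 1 was left out, when 55 of the 145 named genes were called lower. The list's median difference was −2.97, with −1.78 in the set of adult 1 and −3.92 in the other set, where the medians of all probe sets were 0.039 and −0.064.

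The col genes, a large family of cuticle collagens, were less uniform. Of 10 named members, 0 passed the test with 5 arrays, 8 were lower in adults and 4 of these had no overlap between stages. Among all 145 named genes, 109 were lower and 56 were lower without overlap, the latter against 23.2% of all probe sets. The differences of the col genes ran from −4.15 to 0.89, with a median of −0.93. col-90 had the lowest: it measured 11.36 and 12.65 in larvae and 8.90, 8.25 and 6.41 in adults, a difference of −4.15 ± 0.823 (SE, limma adjusted p = 0.0541). col-41 measured 10.83 and 11.57 in larvae, and adult 1 (10.28) lay much closer to these than adults 2 and 3 (8.07 and 7.46). Adult 1 of col-156 (6.66) was instead the lowest of the adults, beside 8.02 and 6.97, with larvae at 8.08 and 9.47. col-111 was called present on larval 2 alone, at 8.52, and not on any adult array. col-142, singled out after its values were seen, went the other way in adults 2 and 3, at 11.65 and 11.04 against 9.01 and 9.29 in larvae, but adult 1 was lowest of all 5 at 7.44.

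Of 3 genes for moulting and the apical matrix, mlt-8 passed the test. mlt-8, named for the moulting defect seen when it is silenced, measured 10.54 and 11.73 in larvae and 8.89, 7.40 and 7.77 in adults, and fell by 3.11 ± 0.581 (log2, SE, limma adjusted p = 0.0487). With the dap control sets as a block it did not pass (limma adjusted p = 0.065), nor with all 10 arrays in the fit (0.102). lpr-7, a lipocalin-related gene, had tight replicates at 6.33 and 6.47 in larvae and 5.38, 5.25 and 5.15 in adults, and missed the threshold at −1.14 ± 0.226 (limma adjusted p = 0.0544). nas-6, a gene for an astacin metalloprotease, was called absent on larval 1 and on adults 2 and 3. Its stages overlapped: adult 1, at 6.42, lay between larval 1 at 5.48 and larval 2 at 7.45, above adults 2 and 3 at 4.83 and 4.76. The bed-3 gene for a zinc finger factor needed in moulting showed the same layout, with 7.15 and 8.06 in larvae, 7.23 in adult 1 and 4.98 and 5.38 in adults 2 and 3, and was called absent on the last 2 arrays.

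Hedgehog-related proteins and patched-related receptors, which in worms act in moulting and cuticle formation, had 5 named genes. With 5 arrays 0 of them passed the test, and without adult 1, 3 did, all lower in adults. In that setting 55 of the 145 named genes and 8.0% of all probe sets were called lower. grl-7, which encodes a hedgehog-related protein with a ground-like domain, measured 9.62 and 11.22 in larvae and 8.41, 7.17 and 6.43 in adults, a difference of −3.09 ± 0.740 (SE, limma adjusted p = 0.075). grl-5 had 8.87 and 10.57 in larvae and 8.07, 7.08 and 6.50 in adults. Both genes were present on adults 1 and 2 and absent on adult 3. For ptr-18, a patched-related gene, adult 1 (7.24) lay between larval 1 (6.92) and larval 2 (8.63), and adults 2 and 3 were lower at 5.46 and 5.42. ptr-6 had its highest value on adult 1, 6.52, and its difference of 0.05 with all arrays became −0.55 without it. It turned negative too after centring on the median and on the scaled signals. ptr-6 was called absent on larval 1 and on adults 2 and 3, so background limits these values. Its other probe set had a difference of −0.22.

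The abu and pqn genes, many of which encode glutamine- and asparagine-rich proteins of the pharyngeal cuticle, had the widest gap between the control sets among the lists of 3 or more genes. Their median difference was 0.08 between adult 1 and larval 1 and −3.55 between adults 2 and 3 and larval 2. Of 4 genes, 0 passed the test with 5 arrays. Without adult 1, 3 were called lower, beside 55 of the 145 named genes and 8.0% of all probe sets. abu-13 measured 9.38 and 10.47 in larvae, 8.15 in adult 1 and 6.69 and 5.84 in adults 2 and 3. abu-14 measured 9.14 and 10.05 in larvae, 9.52 in adult 1 and 7.54 and 5.91 in the other adults, so that adult 1 stood inside the larval range. pqn-13 followed at 7.43 and 8.78, then 7.2, then 5.09 and 4.90. abu-8 read 8.70 and 8.77 in larvae, 9.33 in adult 1, 8.50 in adult 2, just below both larvae, and 6.13 in adult 3.

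**Figure D2:**
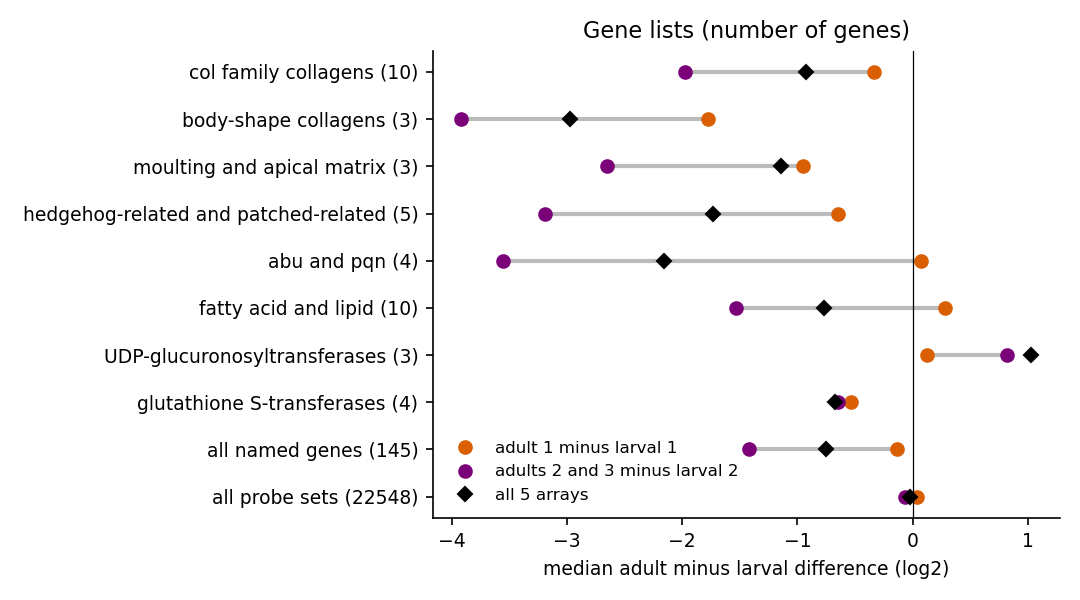
Median log2 difference, adult minus larval, for each list with 3 or more named genes that was described by function, with the number of genes in brackets: adult 1 minus larval 1 (orange), adults 2 and 3 minus larval 2 (purple) and all 5 arrays (black diamonds). The abu and pqn genes lie at 0.08 and −3.55 in the 2 sets, and all 22548 probe sets lie near 0 in both.

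Genes outside the cuticle lists were also among the calls for lower levels in adults. ZK1025.3, for which no role is given here, had the largest difference of the named genes: 9.28 and 10.56 in larvae, 4.67, 6.30 and 4.37 in adults, a change of −4.81 ± 0.705 (log2, SE, limma adjusted p = 0.0306). It was present on both larvae and, among adults, on adult 2 only, with a marginal call on adult 1. With all 10 arrays in the fit ZK1025.3 did not pass (limma adjusted p = 0.0711). oac-29, a member of a family of O-acyltransferase genes, fell by 2.90 ± 0.290 (limma adjusted p = 0.016), from 7.18 and 7.72 to 4.80, 4.51 and 4.35. F56D3.1 fell by 3.34 ± 0.482 (limma adjusted p = 0.0294), and lgc-22, a ligand-gated ion channel gene, fell by 2.58 ± 0.489, just inside the threshold at 0.0497 and outside it with the dap control sets as a block (0.0641). atf-8, which encodes a bZIP transcription factor, lay just outside it at −3.23 ± 0.686 (limma adjusted p = 0.0612). Its larval arrays read 8.76 and 8.71, adult 1 read 6.87, and adults 2 and 3 read 4.78 and 4.87 and were called absent.

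Further genes in the group of large falls without overlap did not pass the test. F15B9.8, titled in the deposited lists as a thrombospondin type 1 domain gene, had −2.60 ± 0.717, H23N18.5 had −2.79 ± 0.949 and dbd-8 had −2.96 ± 0.904 (log2 difference, SE). In all 3, adult 1 was the highest of the adults, at 8.67, 8.85 and 8.36, and all 3 passed without it.

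Named genes higher in adults were fewer. rskn-1, which encodes a kinase of the ribosomal S6 kinase family, measured 7.32 and 7.25 in larvae and 9.26, 9.59 and 9.53 in adults. It rose by 2.18 ± 0.235 on the log2 scale (SE, limma adjusted p = 0.0188), and adult 1 stood with the other adults. vha-18, a gene for a subunit of the vacuolar proton pump, measured 6.44 and 7.21 in larvae and 8.79, 10.24 and 10.24 in adults, a rise of 2.94 ± 0.550 (limma adjusted p = 0.0489). atgl-1, which encodes the lipase that starts the breakdown of stored triglyceride, measured 7.09 and 7.70 in larvae and 9.0, 8.90 and 9.03 in adults, a rise of 1.59 ± 0.275 (limma adjusted p = 0.0431). Neither vha-18 nor atgl-1 passed after quantile normalisation (limma adjusted p = 0.055 and 0.0832) or median centring (0.0626 and 0.0577), and the difference of atgl-1 was 1.0 after quantile normalisation and 0.83 on the scaled signals. rskn-1 and vha-18 belong with gda-1 to a list set apart because of earlier results of these arrays, which makes its direction no independent evidence. gda-1 read 7.74 and 8.42 in larvae and 8.36, 8.41 and 7.74 in adults, with a difference of 0.09 that turned negative under centring, quantile normalisation and the scaled signals.

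The largest rise among named genes without a call was that of pud-2.1, at 2.82 ± 0.859 (log2 difference, SE, limma adjusted p = 0.121). Its larval arrays lay far apart at 6.89 and 9.51, with adults at 10.38, 10.82 and 11.85. Further genes without overlap between stages had smaller differences and did not pass. M01H9.3 had 1.16, obr-2, which encodes an oxysterol-binding protein, had 1.18, and pps-1, which encodes the enzyme that makes the sulphate donor PAPS, had 0.89. C56E6.2, titled as GTP-binding, had 0.60, which became −0.02 after quantile normalisation. In obr-2 larval 2 at 7.55 and adult 3 at 7.55 were almost level.

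**Figure D3:**
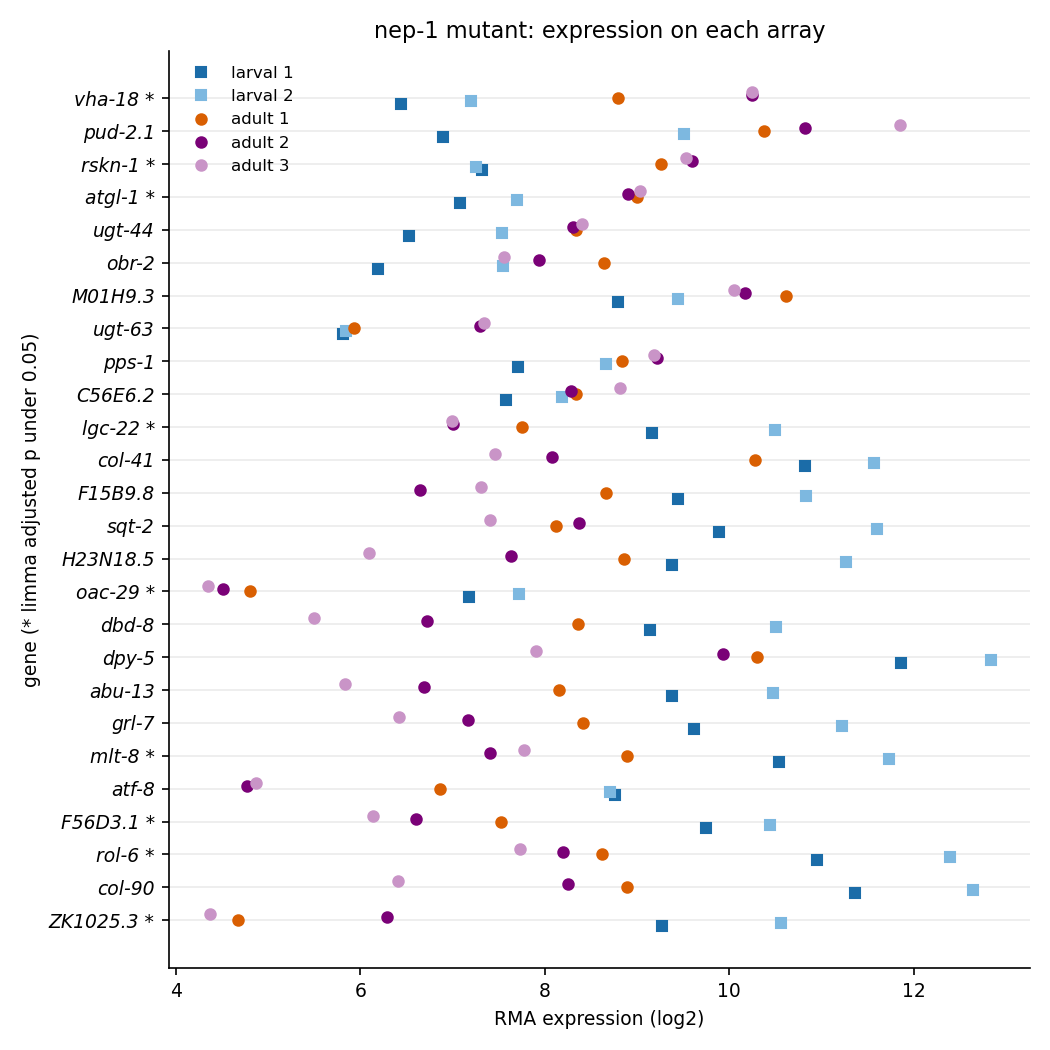
Deposited log2 level on each mutant array for the named genes past the threshold (asterisk) and the largest rises and falls without overlap: larvae as blue squares, adult 1 in orange, adults 2 and 3 in purple and pink. In abu-13, H23N18.5 and col-41 the orange point lies between larvae and the other adults, and in rskn-1 and atgl-1 it lies with the other adults.

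Among 10 named genes of fatty acid and lipid metabolism, 0 passed with 5 arrays, and their median difference was −0.77. Without adult 1, 1 was called higher and 3 lower, beside 9 and 55 of the 145 named genes. acdh-2, an acyl-CoA dehydrogenase gene, measured 4.27 and 3.90 in larvae, 4.93 in adult 1 and 6.81 and 7.30 in adults 2 and 3. acs-20, whose product activates and takes up fatty acids and is needed for the surface barrier of the worm, measured 7.56 and 9.01 in larvae and 7.0, 6.34 and 6.02 in adults. lips-9, a lipase-like gene, read 7.05 and 8.64, then 6.13, 5.29 and 5.27. acox-1.2, a peroxisomal acyl-CoA oxidase gene, read 8.17 and 8.35 in larvae, and here adult 1 at 4.68 was far below adults 2 and 3 at 7.06 and 6.42.

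Enzymes that conjugate foreign and internal compounds gave no call with 5 arrays. Of 3 genes for UDP-glucuronosyltransferases, which attach sugars, ugt-44 and ugt-63 were higher in adults without overlap and ugt-6 was lower with overlap. ugt-44 measured 6.53 and 7.54 in larvae and 8.33, 8.31 and 8.41 in adults, while ugt-63 stayed at 5.81, 5.85 and 5.93 on larval 1, larval 2 and adult 1 and reached 7.30 and 7.34 on adults 2 and 3. The 4 genes for glutathione S-transferases had negative differences, with a median of −0.67. gst-6 had 8.49 and 8.74 in larvae and 8.07, 7.48 and 6.15 in adults. gst-13 differed by −0.24 ± 0.216 (log2, SE), gst-20 by −0.81 ± 0.381, and gst-10 by −0.54 with all arrays and 0.37 without adult 1. cyp-35C1, a cytochrome P450 gene, read 7.66 and 7.75 in larvae, 5.24 in adult 1 and 6.58 and 6.71 in the other adults.

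Single genes of further lists gave no call with 5 arrays. The lysozyme gene lys-2 differed by −0.03 ± 0.271 and ketn-1, which encodes the muscle protein kettin, by −0.18 ± 0.671 (log2, SE), and both changed sign with arrays left out. nlp-8, a neuropeptide-like protein gene, read 7.5 and 7.34 in larvae, 9.0 in adult 1 and 6.46 and 6.40 in adults 2 and 3.

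nep-1 itself (probe set 188537_s_at) gave low values on all mutant arrays, 5.20 and 4.85 in larvae and 5.05, 5.10 and 5.42 in adults. The difference of 0.16 ± 0.259 (log2, SE) did not pass the test (limma adjusted p = 0.741) and was −0.01 without larval 2. It was called absent on both larval arrays, present on adults 1 and 2 and marginal on adult 3, so its larval value is not above background. In the wild type the stage difference of nep-1 was −1.95.

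More probe sets gained a present call in adults than lost it. Of 22548 probe sets, 9115 (40.42%) were present on all 5 mutant arrays and 6271 (27.81%) on none. Another 556 were absent on both larvae and present on all 3 adults, and 74 went the other way. The choice by detection calls of the same arrays fixes the direction of these sets, so their values are a description. Those that gained detection had a median difference of 2.15, with 151 called by limma and 439 without overlap, beside 3.52% called higher and 22.5% higher without overlap over all probe sets. Those that lost it had a median of −1.92, with 38 called and 66 without overlap, beside 1.52% and 23.2%. With an array left out fewer calls are required, so the counts can only stay or rise. They ran from 707 to 1283 gained (1283 without larval 2, 843 without adult 1). For detection lost they ran from 79 to 376 (376 without adult 1, 288 without larval 1, 199 without larval 2). Adult 1 had the most present calls, and it was present on 291 (77.39%) of the 376 probe sets that were present on both larvae and absent on adults 2 and 3. Of the 843 probe sets absent on both larvae and present on adults 2 and 3, adult 1 was present on 556 (65.95%) and absent on 265 (31.44%).

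**Figure D4:**
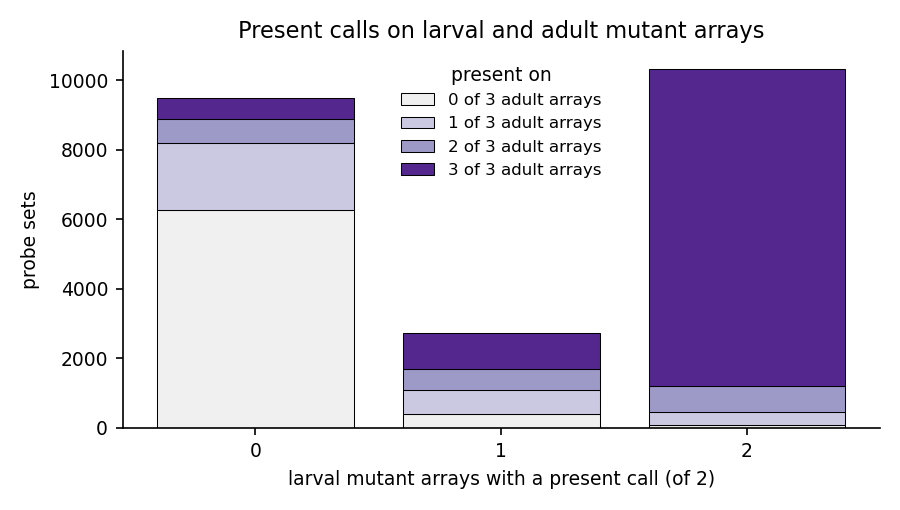
Number of probe sets (vertical axis) by how many of the 2 larval mutant arrays called them present (horizontal axis), with each bar divided by how many of the 3 adult arrays did. Of probe sets present on both larvae, 9115 were present on all 3 adults and 88 on none; of those present on neither larva, 614 were present on all 3 adults.

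Among named genes, Y51H7C.1 gained detection on adults 2 and 3 only. It measured 6.18 and 5.89 on the larvae and 5.59 on adult 1, where it was absent, and 8.97 and 8.85 on adults 2 and 3. The mean of its adults was 3.41-fold above the larvae, with a background value of adult 1 in that mean. Its difference of 1.77 ± 1.08 (log2, SE) did not pass the test (limma adjusted p = 0.365). cht-4, elo-3, moe-3 and mab-7 had present calls on 1 of 2 larval arrays and on a larger share of the adult arrays (3 of 3 for cht-4 and elo-3, 2 of 3 for moe-3 and mab-7), and their log2 differences were −1.18, 0.22, −0.53 and 0.16. C38C6.3, C50D2.1 and Y41G9A.5 were present on both larvae and on adult 1 but absent on adults 2 and 3. C38C6.3 read 6.25 and 8.27 in larvae and 5.45, 4.94 and 4.45 in adults, C50D2.1 read 7.18 and 8.51, then 6.91, 5.49 and 5.52, and Y41G9A.5 read 7.92 and 7.12, then 6.75, 5.06 and 5.27. F39D8.3, titled as carbonic anhydrase like, was the one of these genes absent on all 3 adults. It read 4.12 and 5.37 in larvae and 4.29, 4.40 and 4.34 in adults. Its larval mean was 1.32-fold above its adult mean, but larval 1 lay below all 3 adults. Leaving out larval 2 turned its difference from −0.40 to 0.22.

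Adult 1 lay about midway between the larvae and the other adults. Its place was computed for probe sets chosen without it, those where adults 2 and 3 differed from the larval mean by at least 1 (log2) without overlap of these 4 arrays, on a scale where 0 is the larval mean and 1 the mean of the other adults. For 4204 probe sets higher in adults 2 and 3 its median place was 0.472 (quartiles 0.218 and 0.716). For 2082 probe sets lower in them it was 0.538 (quartiles 0.047 and 0.821). Adult 1 was on the far side of the larval mean in 461 of the rises (10.97%) and in 493 of the falls (23.7%). Computed the same way, each with its own probe sets, adult 2 had medians of 1.14 for rises and 1.08 for falls, and adult 3 had 1.18 and 1.04. For adults 2 and 3 the mean of the other adults includes adult 1, which can push their places above 1. Among the wild-type arrays, adult 3, which also had the low dap control, had 0.667 and 0.505. On the scaled signals the median place of adult 1 for falls was 0.088, that is close to the larvae, with 4809 probe sets chosen. Each place is a value from 1 array and carries no test.

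**Figure D5:**
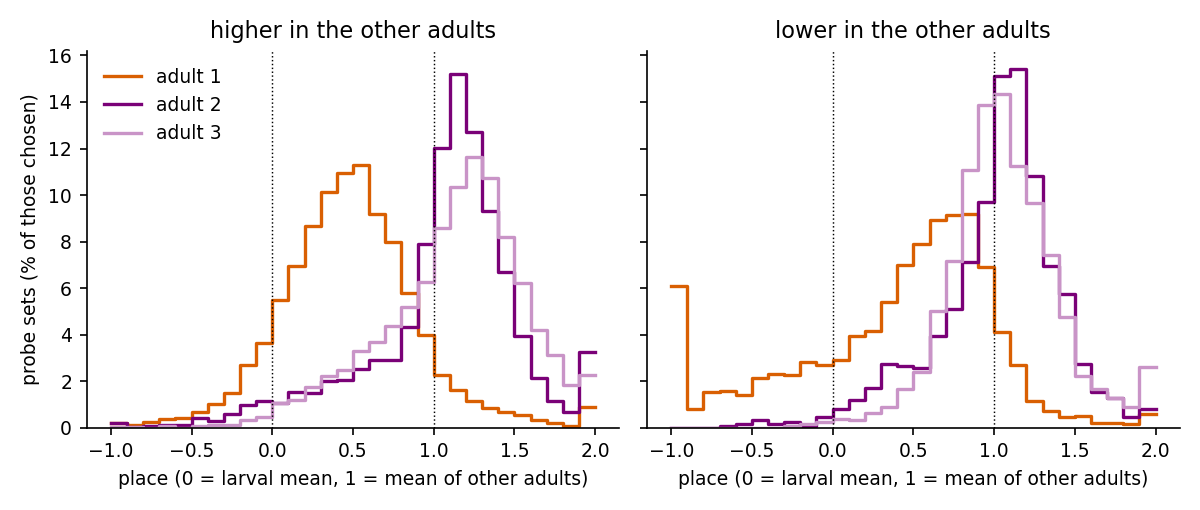
Share of the chosen probe sets (vertical axis, %) by the place of an adult mutant array between the larval mean (0, dotted) and the mean of the other adults (1, dotted), for probe sets higher (left) or lower (right) in the other adults; the end bins hold all values beyond them. Adult 1 (orange) peaks between the dotted lines, with medians of 0.472 and 0.538, and adults 2 and 3 peak at or beyond 1. For adults 2 and 3 the other adults include adult 1.

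The place of adult 1 differed between groups of few genes, which was not tested. Over all 2082 falls its quartiles were 0.047 and 0.821. The 4 abu and pqn genes had places from −0.42 to 0.48, with a median of 0.158, so all were nearer the larvae. The 3 body-shape collagens had a median of 0.824 and lay from 0.598 to 0.921, nearer the other adults, and 4 chosen col genes lay from 0.267 to 1.65. Hedgehog-related and patched-related genes lay from 0.228 to 0.562. Over the named genes chosen, the median place was 0.286 for 13 rises, of which 4 were beyond the larvae, and 0.428 for 71 falls, of which 13 were.

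Among named genes where adults 2 and 3 differed from the larval mean by at least 2 (log2), the 6 whose adult 1 value lay nearest the larval mean, in log2 units, were Y51H7C.1, F41F3.3, abu-14, bus-5, bed-3 and ptr-18, with places from −0.16 to 0.23. bus-5 encodes a dehydratase for a nucleotide sugar, and its mutants have an altered surface. It measured 10.003 and 11.06 in larvae, 10.06 in adult 1 and 7.18 and 6.40 in the other adults. F41F3.3, titled as a cuticlin gene, measured 12.03 and 13.46 in larvae, 12.86 in adult 1 and 11.37 and 9.99 in the others. The 6 nearest the mean of adults 2 and 3, by the same limit and measure, were rskn-1, oac-29, sqt-2, ZK1025.3, rol-6 and C38C6.3, with places from 0.706 to 1.14. sqt-2 had 9.89 and 11.60 in larvae and 8.12, 8.37 and 7.41 in adults.

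Adult 1 also lay outside the range of all other mutant arrays in part of the probe sets. It was at least 1 (log2) above all 4 in 968 probe sets and at least 1 below all 4 in 147, against 618 and 55 for adult 2, 184 and 122 for adult 3, 74 and 273 for larval 1, and 284 and 74 for larval 2. Of the named genes, 8 were that far above and 7 that far below. F44E5.5, an HSP70 chaperone gene with a near-identical neighbour that its probe set may also detect, measured 11.82 on adult 1, and 7.11, 9.57, 8.23 and 7.01 on larval 1, larval 2, adult 2 and adult 3. Its stage difference was 4.70 in the set of adult 1 and −1.95 in the other. fat-7, which encodes a stearoyl-CoA desaturase and was singled out after its values were seen, measured 8.0 on adult 1 and between 10.80 and 11.64 on the other 4 arrays.

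The stage change of the mutant was set against that of the wild type by the test of their difference over all 10 arrays. limma called 0 of 22548 probe sets (0.0%), with 92 at an unadjusted p under 0.05 and a smallest adjusted p of 1. No gene can thus be called particular to the mutant from these arrays, and the test does not show that the stage changes were alike. All 1136 probe sets called in the mutant had the same sign in the wild type, where their median differences were 2.25 for the 794 rises and −1.91 for the 342 falls. Across all probe sets the stage differences of the genotypes correlated at 0.938 (Pearson, a description, since probe sets are not replicates and both genotypes include an adult array with the low dap control). Of the 145 named genes 23 had opposite signs in the genotypes, and 1 of these, obr-2, had no overlap between stages in the mutant, with 1.18 there and −0.33 in the wild type. rskn-1 had 2.18 in the mutant and 2.38 in the wild type, rol-6 had −3.49 and −3.64, and oac-29 had −2.90 and −4.10.

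With 2 larval and 3 adult arrays an exact permutation test of a single gene has 10 arrangements, and its smallest two-sided p is 0.2, which rskn-1 reached. The calls above therefore rest on limma's spread shared across probe sets, with 3 residual degrees of freedom.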

How the data were processed

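Total RNA of whole worms was hybridised to 1-colour Affymetrix arrays. The log2 values analysed are RMA values that the authors deposited (RMA is named in the submitters' processing notes). From the deposited tables that compare arrays pairwise, each array's scaled signal (intensity) and detection call were taken, as named per the file headers, where the target of 300 also stands. Deposited detection p-values only ordered genes with equal changes in the share of present calls, and 71 per-array columns in all were not used. The array holds 22625 probe sets, of which 77 are controls, and the remaining 22548 were tested without a filter. limma 3.58.1 in R 4.3.3 fitted adult minus larval over the 5 mutant arrays (two-sided, Benjamini-Hochberg, threshold 0.05, 3 residual and 2.48 prior degrees of freedom, median residual SD 0.383). The code was also run on simulated data. Those data varied independently for each probe set, with no shift shared by the probe sets of an array. They therefore say nothing about calls where a whole array lies apart, as adult 1 does. The number of arrays limits the precision. Tables were handled in Python 3.11.15.

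The authors' lists hold 196 probe sets, and 152 matched 1 gene of a RefSeq table (WBcel235), giving 145 genes; 4 had several genes, 37 no number and 3 a number not in the table. Where several probe sets share a gene, that of highest mean on the mutant arrays was taken. Sequences and positions were not analysed here. Named were nep-1; the 15 largest rises and falls past the threshold or, with fewer than 10 passing in a direction, the 15 largest without overlap above the median level; up to 4 genes a list; 6 genes each by the nearness of adult 1 to the larvae or other adults (difference of at least 2) and by the change in the share of present calls. Members and lists were chosen with earlier results of these data known. Alternatives were other scalings, filters, weights, blocks, the scaled signals (log2 after adding 16) and leaving out arrays.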

Additional observations from a re-analysis of the deposited data

How the results depend on the processing

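The count of calls in the mutant depended more on which arrays entered than on the scaling. It was 1136 with 5 arrays and ranged from 0 to 5323 when arrays were left out in turn (rises 0 to 3519, falls 0 to 1804). Array weights gave 4771 calls (3219 rises, 1552 falls), the scaled signals 221 (159 and 62), and limma's fit without moderation 1 (1 and 0). All 10 arrays in 4 groups gave 3810 (2466 and 1344), with the naming style of the descriptions as a random block 2686 (1952 and 734), and with the dap control sets as a block, chosen after seeing the data, 5552 (3538 and 2014). Quantile normalisation gave a similar total (1139) with 603 falls, but only 839 of these calls were among the 1136. Median centring gave 870 calls with 469 rises, and 790 of them were among the 1136. With the replicate block, the title numbers shared by larval and adult arrays, 0 were called (3951 at an unadjusted p under 0.05). Labels do not state that these numbers pair the arrays, only 2 numbers are shared, and the paired differences correlated at 0.129. Detection gained ranged from 707 to 1283 and detection lost from 79 to 376 with arrays left out, which can only keep or raise these counts. The median place of adult 1 stayed from 0.438 to 0.522 for rises and from 0.440 to 0.642 for falls, except 0.0878 for falls on the scaled signals. The difference between genotypes gave 0 calls under every alternative run (13 to 532 at an unadjusted p under 0.05).

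Of 1183 recomputed values for 66 named genes under 18 alternatives, 976 kept direction and side of the threshold, 92 passed newly, 74 no longer passed and 41 changed sign, all of these in genes without a call. Quantile normalisation gave −0.14 for elo-3, −0.016 for C56E6.2 and −0.49 for gda-1. Centring gave −0.069 for ptr-6 and −0.029 for gda-1, and the scaled signals gave −0.20 for mab-7, −0.86 for ptr-6 and −0.17 for gda-1. Array weights gave 0.19 for gst-10, −0.42 for ptr-6, −0.41 for F44E5.5 and 0.086 for fat-7. The replicate block gave 0.18 for abu-8, 0.31 for nlp-8, 0.36 for ketn-1 and 0.089 for lys-2. The random block gave 0.061 for both nlp-8 and lys-2, and the dap block gave 0.12 for nlp-8 with 5 arrays, and 0.032 for nlp-8 and 0.020 for lys-2 with 10. With arrays left out in turn, differences ranged from −1.02 to 0.22 for F39D8.3, −0.72 to 1.91 for F44E5.5, −1.42 to 0.18 for abu-8, −0.42 to 0.86 for elo-3, −1.53 to 0.28 for fat-7, −0.25 to 0.43 for gda-1, −1.01 to 0.37 for gst-10, −0.75 to 0.39 for ketn-1, −0.21 to 0.14 for lys-2, −1.09 to 0.026 for moe-3, −0.014 to 0.34 for nep-1, −0.99 to 0.31 for nlp-8 and −0.72 to 0.82 for ptr-6. The cause of these changes was not tested. Low signal limits nep-1 and other probe sets called absent.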
